A study of Mus musculus with 37 samples.

Results

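Metallothioneins are small cysteine-rich proteins that bind zinc and copper, and the 5 genes described here cover their main inducible members and the machinery that sets cellular zinc: Mt1 and Mt2, the zinc importer Slc39a14 (ZIP14), the zinc exporter Slc30a1 (ZnT1) and Mtf1, the zinc-sensing transcription factor. They are 5 of the 56748 genes in the table and were taken by symbol. They were chosen with Mt1's level in Arrest hearts at 1 day already known, so levels against Naïve hearts, and Arrest against Adr at 1 day, are descriptions with no test. All 5 passed the filter on low values (0.5 FPKM or more in at least 4 libraries), Mt2 through a few libraries in which it was detected. FPKM is the fragment count per kilobase of gene length and per 1e6 fragments of a library size set in the authors' processing. That size was not the number of fragments counted on genes.

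Left ventricular RNA was sequenced from 37 C57BL/6J mice, young adults of both sexes, in 9 groups. All mice were anesthetized with isoflurane. Naïve mice (5 libraries) had anesthesia alone, with no intubation or injection. Adr mice, called sham in the labels, were ventilated and received saline and then adrenaline through the ventricular wall. Arrest mice received potassium chloride, which stopped the heart, and were resuscitated with the same adrenaline dose and chest compressions. Hearts of both arms were collected on day 0.5, 1, 3 or 7, with 4 libraries per arm and time. Every Arrest heart was therefore also an adrenaline-treated, needle-punctured and ventilated heart, and only survivors were collected. The apex, where the needle entered, was discarded, and no group had injection of saline alone.

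Zinc that enters a cell through ZIP transporters binds MTF1, which moves to the nucleus and activates genes carrying metal response elements, foremost the metallothioneins and the exporter ZnT1. Metallothioneins then hold the zinc and also scavenge oxidants. In many tissues the same genes respond to glucocorticoids and to interleukin-6 acting through STAT3, which also induces ZIP14 in the liver during the acute phase.

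The stretches before the start sites of Mt1, Mt2 and Slc30a1 are shown because these 3 genes are reported targets of MTF1. They are the 250 bases before the RefSeq start on GRCm38.p6, written 5′ to 3′ along the gene's strand. Capitals mark matches to TGCACNC or TGCGCNC, cores of the metal response element, on either strand (a match on the opposite strand appears as its reverse complement).
Mt1, chr8:94178839-94179088, + strand: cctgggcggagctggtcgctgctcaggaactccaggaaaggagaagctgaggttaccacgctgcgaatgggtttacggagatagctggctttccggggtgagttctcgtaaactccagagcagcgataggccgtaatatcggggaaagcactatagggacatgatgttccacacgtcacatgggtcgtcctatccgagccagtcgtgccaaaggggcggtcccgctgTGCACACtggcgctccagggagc
Mt2, chr8:94172368-94172617, + strand: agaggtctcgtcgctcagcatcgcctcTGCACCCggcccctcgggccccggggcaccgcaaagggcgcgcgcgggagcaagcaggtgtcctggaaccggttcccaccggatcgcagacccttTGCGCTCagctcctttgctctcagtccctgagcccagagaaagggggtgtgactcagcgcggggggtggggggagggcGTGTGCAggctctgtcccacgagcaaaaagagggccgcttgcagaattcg
Slc30a1, chr1:191906531-191906780, + strand: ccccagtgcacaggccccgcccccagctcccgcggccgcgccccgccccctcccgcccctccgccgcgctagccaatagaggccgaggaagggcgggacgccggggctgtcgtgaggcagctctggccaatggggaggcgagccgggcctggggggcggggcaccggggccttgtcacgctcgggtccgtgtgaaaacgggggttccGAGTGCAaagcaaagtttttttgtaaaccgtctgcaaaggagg

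The window of Mt1 held 1 core, whose leftmost base lies 23 bases before the start. That of Mt2 held 3, at 223, 128 and 50 bases, and that of Slc30a1 held 1, at 43 bases. The window of Mtf1 held 0. Of 32851 promoters of the same length, 21.4% held at least 1 core, 5.17% at least 2 and 1.26% at least 3. The glucocorticoid receptor motif AGAACA was found before Mtf1 alone among the 4 (16.1% of all promoters), and the STAT site TTCNNNGAA before none of them (7.02%). TGACNNNGC, the core of the antioxidant response element, was found before Mt2 and Slc30a1 (10.2%). GENCODE M21 places the last annotated start of Mt1 152 bases, and that of Mt2 242 bases, downstream of the RefSeq start, and the bases between were not searched. Slc39a14 had no entry among the promoters and was not searched. These matches are letters in a window and say nothing of binding.

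The libraries held 13.2 to 30.2 M fragments counted on genes (M, 1e6 fragments). Naïve replicate 4 had the fewest genes above 0, 13475 against 15398 or more in every other library. Sums of 6 ventricular cardiomyocyte markers ran from 11459 to 13539 FPKM in Naïve and from 9768 to 15964 FPKM in the hearts of 0.5 and 1 day, so the labelled tissue carried its defining transcripts. Adr replicate 3 at 3 days stood apart, with a cardiomyocyte marker sum of 3261 FPKM, a macrophage sum of 930, an atrial sum of 485 and 9.36% of fragments on mitochondrial genes (26% to 28.1% in the rest of its group). The study's methods drop 1 Adr sample of that time for poor quality, and the labels do not say which one, so all 4 libraries were kept here and results that use this group are also given without replicate 3. By Xist and Ddx3y, each group held both sexes. In whole tissue, a change in the number of cells of a type cannot be told apart from a change of RNA per cell.

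Mt1 (ENSMUSG00000031765, chromosome 8, 94905710 to 94906955 on the plus strand, in the table's own coordinates, whose build is not named) was the most abundant of the 5 genes in every library. It was above Naïve at 0.5 days in both arms, stood highest in Arrest hearts at 0.5 and 1 day, and lay at the Naïve level again by 7 days. In Naïve hearts, replicates 1 to 5 read 132, 120, 116, 95.9 and 108 FPKM, a narrow range with a mean of 114 ± 13.5 (SD, n = 5). Arrest hearts at 0.5 days read 671, 1594, 421 and 797 FPKM, a mean of 871 ± 507 (SD, n = 4). At 1 day they read 1196, 735, 1556 and 350 FPKM, a mean of 959 ± 527 (SD, n = 4). Every one of these 8 hearts was above every Naïve heart. The means were 7.61 and 8.38 times that of Naïve, and fitted differences on log2(FPKM + 1) were 2.76 (SE 0.52, 95% interval 1.70 to 3.81) and 2.86 (SE 0.52, 1.80 to 3.92).

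Adrenaline without arrest was also followed by higher Mt1. Adr hearts at 0.5 days read 183, 176, 822 and 749 FPKM, a mean of 483 ± 351 (SD, n = 4) and a log2 difference from Naïve of 1.71 (0.66 to 2.77). They fell into a low and a high pair, each with 1 male and 1 female. At 1 day they read 229, 247, 589 and 374 FPKM, a mean of 360 ± 166 (SD, n = 4) and a difference of 1.54 (0.49 to 2.6). No Adr heart at either time overlapped the Naïve range.

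At 3 days most hearts were near the Naïve level and 1 heart in each arm was not. Adr hearts read 107, 109, 87.5 and 423 FPKM, a mean of 182 ± 161 (SD, n = 4) and a log2 difference of 0.34 (-0.71 to 1.40). Without replicate 4 the difference was -0.17, and without replicate 3, the library that stood apart, it was 0.58. Arrest hearts read 869, 184, 132 and 158 FPKM, a mean of 335 ± 356 (SD, n = 4) and a difference of 1.07 (0.01 to 2.13), which dropped to 0.45 without replicate 1. At 7 days, Adr hearts read 135, 146, 80.9 and 102 FPKM (difference -0.01) and Arrest hearts 123, 103, 147 and 127 FPKM (difference 0.12), and both groups overlapped the Naïve range. In all, 23 of the 32 Adr and Arrest hearts were above the highest Naïve heart. Within a group, single hearts differed most in Arrest at 3 days, by 6.6-fold. The cardiomyocyte marker sums of the 2 hearts with high Mt1 at 3 days, 6536 FPKM in Adr and 7172 FPKM in Arrest, were the lowest of all libraries after that of Adr replicate 3, and the part of this in their Mt1 was not tested.

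**Figure D1:**
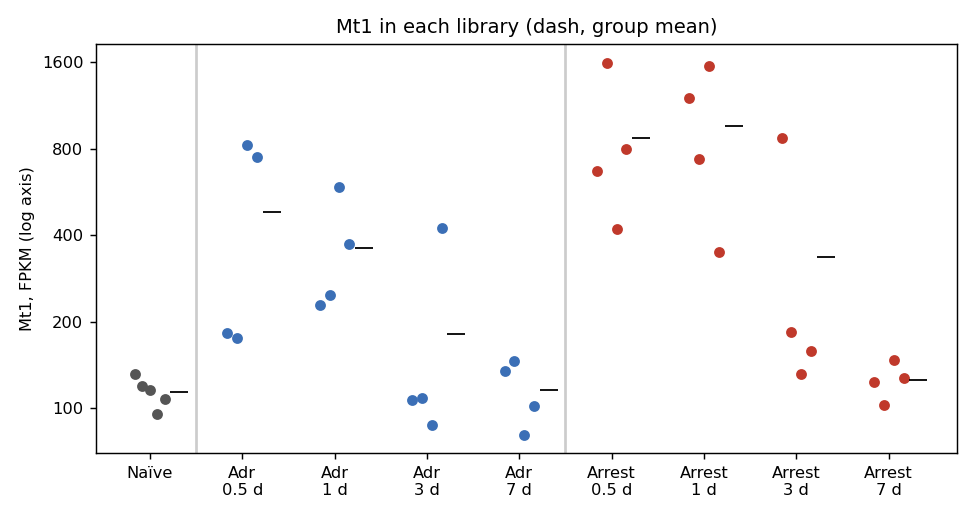
Mt1 in FPKM (log axis) in each library of the 9 groups, with replicates in order within a group and a dash for the group mean. All hearts at 0.5 and 1 day lie above the Naïve range of 95.9 to 132 FPKM, and at 3 days 1 heart in each arm (423 and 869 FPKM) lies far above its group.

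Ordered by mean, Mt1 was highest in Arrest at 1 day (959 FPKM), then Arrest at 0.5 days (871), Adr at 0.5 days (483), Adr at 1 day (360), Arrest at 3 days (335), Adr at 3 days (182), Arrest at 7 days (125), Adr at 7 days (116) and Naïve (114). Each neighbouring pair in this order had overlapping libraries. Between the arms at the same time, Arrest minus Adr was 1.04 on the log2 scale at 0.5 days (95% interval -0.07 to 2.15; limma adjusted p = 1), 0.73 at 3 days (-0.39 to 1.84; adjusted p = 0.922) and 0.13 at 7 days (-0.98 to 1.25; adjusted p = 1). At 1 day, where the genes were chosen, it was 1.31 (0.20 to 2.43), with 3 of 4 Arrest hearts above every Adr heart. The difference at 3 days rested on 1 heart, and it was 0.11 without Arrest replicate 1, 1.24 without Adr replicate 4 and 0.49 without Adr replicate 3. The intervals at 0.5, 3 and 7 days hold both no difference and one of more than 1 on the log2 scale, so that the arms were neither shown to differ nor shown to be alike. The fit gave all groups 1 shared spread, so the interval at 7 days also carries the wider spread of hearts at earlier times. At 7 days Arrest hearts averaged 125 ± 18.1 FPKM and Adr hearts 116 ± 30 (SD, n = 4).

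Markers of other cells moved with Mt1 in some hearts and not in others. The summed level of 6 liver transcripts was 2.4 to 4.8 FPKM in Naïve, 5.85 to 11.9 in Arrest at 0.5 days and 4.02 to 12.4 at 1 day, and 2.12 to 13.8 in Adr at 0.5 days and 3.42 to 26.3 at 1 day. In Adr at 0.5 days the hearts with low Mt1 had liver sums of 2.29 and 2.12 FPKM and those with high Mt1 had 11.3 and 13.8, and Arrest replicate 1 at 3 days had 21.5. Most of these sums was Ahsg (at most 23.9 FPKM in any library), while albumin (Alb) never passed 0.46 FPKM and Fgb never passed 0.0565, and 4 of the 6 were at 0 throughout the Naïve group. The sum of 6 neutrophil markers ran from 0 to 9.74 FPKM in Naïve and from 3.6 to 32.2 and 5.81 to 19.3 in Arrest at 0.5 and 1 day, and from 1.53 to 32.3 and 0.777 to 8.96 in Adr, with Ly6g, a defining neutrophil marker, at 0 in all 37 libraries. The sum of 5 fibroblast markers was 175 to 241 FPKM in Naïve, 216 to 238 and 253 to 332 in Arrest at 0.5 and 1 day, and 180 to 309 and 236 to 385 in Adr. That of 4 atrial markers was 13.8 to 32.4 FPKM in Naïve, 16.8 to 73.2 and 32.7 to 72.7 in Arrest and 17.1 to 85.2 and 30.0 to 693 in Adr. Adr replicate 3 had the highest Mt1 of its group at 0.5 and 1 day but the lowest neutrophil sums (1.53 and 0.777). The Arrest hearts highest in Mt1 at those times had the highest neutrophil sums of their groups (32.2 and 19.3). Adr replicate 1 at 7 days had a liver sum of 11.2 FPKM with Mt1 at 135. The endothelial sum was 162 to 173 FPKM in Naïve and highest, at 252, in Arrest replicate 1 at 3 days. The part of these cells in the level of Mt1 was not tested.

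Mt2 (ENSMUSG00000031762), which lies 5514 bases before Mt1 on the same strand, was almost absent from the table. It was listed at 0 in 26 of 37 libraries, among them all Naïve and all Adr hearts at 7 days, and held 113 fragments over all libraries against 288694 for Mt1. Arrest hearts at 0.5 days had 16, 43, 0 and 0 fragments, which is 1.94, 4.33, 0 and 0 FPKM. Arrest hearts at 1 day had 0, 8, 5 and 0 fragments and Adr hearts at 0.5 days 3, 0, 6 and 1. The remaining counts above 0 were 3 in Adr replicate 4 at 1 day, 10 in Adr replicate 4 at 3 days, 15 in Arrest replicate 1 at 3 days and 3 in Arrest replicate 1 at 7 days. A count of 0 allows up to 3 fragments, or 0.157 to 0.395 FPKM depending on the library, so a library at 0 does not show that Mt2 was absent.

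Where Mt2 was detected, Mt1 was at least 123 FPKM, but Mt1 reached 1196 FPKM in a heart with Mt2 at 0. Both hearts that stood out for Mt1 at 3 days were also the only ones of their groups with Mt2 above 0. Between the arms, Arrest minus Adr for Mt2 was 0.67 on the log2 scale at 0.5 days (-0.04 to 1.38; limma adjusted p = 1), 0.17 at 3 days (adjusted p = 0.977) and 0.11 at 7 days (adjusted p = 1). At 0.5 days it was 0.20 without Arrest replicate 2, and at 3 days 0.11 without Adr replicate 3, the library that stood apart. Mt2 in Adr at 3 days minus Naïve was 0.25 without that library. These fitted values depend on the pseudocount and are no bound on a change.

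The count of Mt2 is uncertain because of a neighbour. The antisense gene Gm45774 (ENSMUSG00000110588), on the minus strand, covers 749 of the 905 bases that Mt2 spans in the table. In the GENCODE M21 annotation of GRCm38, 432 of the 588 exonic bases of Mt2 lie within Gm45774 and 156 do not. Gm45774 itself held 78 fragments over all libraries and was at 0 in 29. Without the strand counted, reads of Mt2 and of its antisense partner cannot be told apart, and what happened to reads lying in both genes was not tested.

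**Figure D2:**
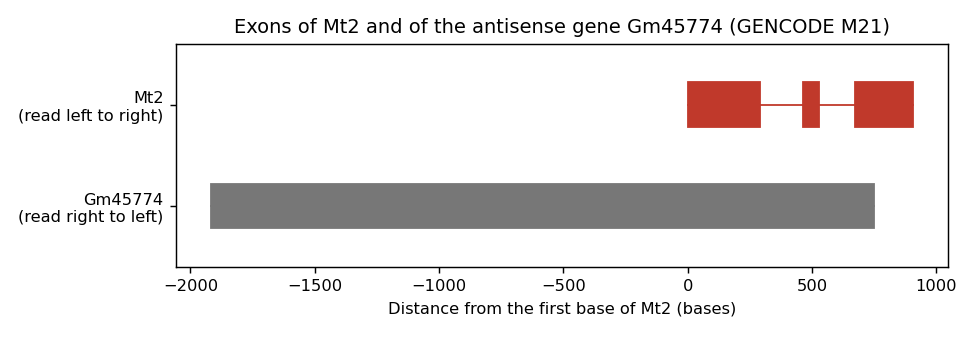
Exons of Mt2 (red boxes) and of the antisense gene Gm45774 (grey box) in the GENCODE M21 annotation, drawn to scale as distance in bases from the first base of Mt2. Gm45774 covers the first 749 bases of the Mt2 span, and 156 bases at its end lie outside.

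Slc39a14 (ENSMUSG00000022094, chromosome 14, minus strand) carries zinc, iron and manganese into the cell. It was higher in Arrest hearts at 0.5 days and in no other group by more than its spread. Naïve hearts read 4.94, 4.38, 5.06, 5.83 and 3.19 FPKM, a mean of 4.68 ± 0.979 (SD, n = 5). Arrest hearts at 0.5 days read 5.55, 9.95, 7.28 and 8.4 FPKM, a mean of 7.79 ± 1.86 (SD, n = 4), and 3 of the 4 were above every Naïve heart. The fitted difference was 0.62 on the log2 scale (SE 0.15, 0.31 to 0.93). At 1 day Arrest hearts read 5.19, 4.45, 8.19 and 5.47 FPKM (difference 0.25, -0.05 to 0.56), and 1 heart was above the Naïve range.

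The other groups lay on the Naïve level. Adr hearts at 0.5 days read 5.02, 4.49, 4.31 and 6.7 FPKM (difference 0.11), and group means of the remaining groups ran from 4.30 to 4.58 FPKM with differences between -0.09 and -0.01. Arrest minus Adr was 0.51 on the log2 scale at 0.5 days (0.19 to 0.84), with an unadjusted p of 0.00312 and a limma adjusted p of 1 over 16530 genes. It was 0.02 at 3 days (-0.31 to 0.35) and 0.06 at 7 days (-0.26 to 0.39), with adjusted p = 1 at both. At 1 day it was 0.33 (0.00 to 0.66), as a description. Without Adr replicate 3 at 3 days, Adr minus Naïve was -0.06 and Arrest minus Adr -0.01 at that time. The hearts highest in Slc39a14 at 0.5 and 1 day, Arrest replicates 2 and 3, were also the highest in Mt1 at those times.

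Slc30a1 (ENSMUSG00000037434, chromosome 1, plus strand), which moves zinc out of the cell, differed between groups by less than the spread among Naïve hearts. These read 4.86, 5.82, 4.14, 2.22 and 5.23 FPKM, a mean of 4.45 ± 1.39 (SD, n = 5). The spread was widened by replicate 4 (2.22 FPKM), the library with the fewest genes above 0. Over all alternatives, the difference from Naïve went as low as -0.27 in both arms at 0.5 days and -0.28 in Adr at 1 day. Group means elsewhere ran from 3.94 FPKM (Adr at 1 day) to 5.03 FPKM (Arrest at 7 days), and differences from Naïve from -0.10 to 0.19 on the log2 scale, all with intervals across 0. In Arrest hearts it read 3.19, 3.28, 4.69 and 4.94 FPKM at 0.5 days and 5.07, 4.03, 3.36 and 4.35 at 1 day. The heart with the highest Mt1 at 0.5 days (1594 FPKM) had 3.28 FPKM of Slc30a1, within the Naïve range only through Naïve replicate 4. The highest value, 7.15 FPKM, was that of Arrest replicate 1 at 3 days, the heart with 869 FPKM of Mt1. Arrest minus Adr was 0.00 at 0.5 days (-0.42 to 0.42), 0.05 at 3 days (-0.37 to 0.47) and 0.21 at 7 days (-0.21 to 0.63), with limma adjusted p = 1, 0.999 and 1. Without Adr replicate 3, the difference between the arms at 3 days was 0.12 and that of Adr from Naïve -0.06.

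Mtf1 (ENSMUSG00000028890, chromosome 4, plus strand) was the lowest of the 4 genes detected in all libraries, and its means in the 8 other groups were all below that of Naïve. Naïve hearts read 3.36, 2.63, 2.64, 1.6 and 1.6 FPKM, a mean of 2.37 ± 0.758 (SD, n = 5), a wide range that every other group overlapped. Arrest hearts read 1.39, 1.73, 1.74 and 2.62 FPKM at 0.5 days and 1.42, 1.22, 1.86 and 1.39 at 1 day. The largest differences on the log2 scale were -0.42 in Arrest at 1 day (-0.78 to -0.06) and -0.42 in Adr at 3 days (-0.78 to -0.05). Both arms were nearer to Naïve at 7 days (-0.07 in Arrest and -0.05 in Adr). Arrest minus Adr was 0.10 at 0.5 days (-0.28 to 0.48), 0.11 at 3 days (-0.27 to 0.49) and -0.02 at 7 days (-0.40 to 0.36), with limma adjusted p = 1, 0.97 and 1. Leaving out Adr replicate 3 gave -0.36 for Adr against Naïve and 0.05 between the arms at 3 days.

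**Figure D3:**
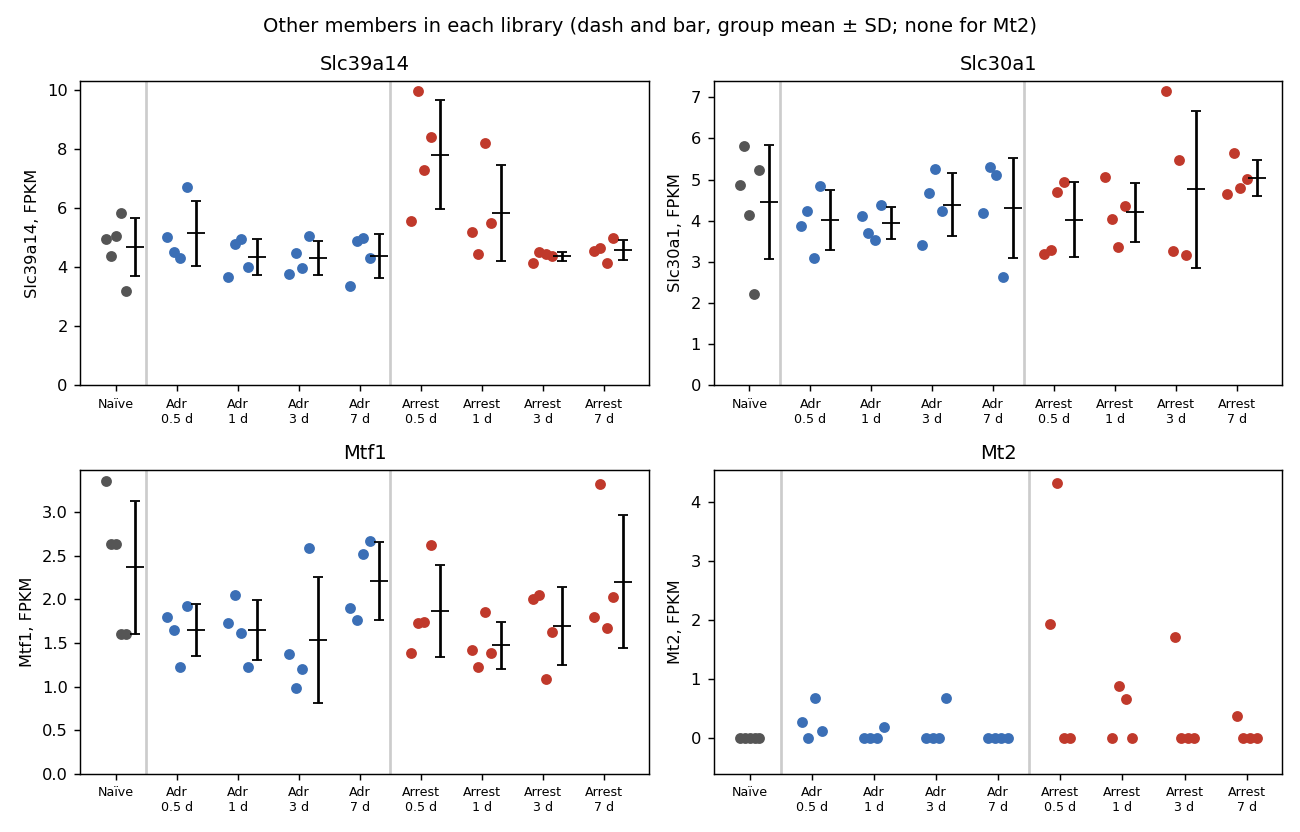
Slc39a14, Slc30a1, Mtf1 and Mt2 in FPKM in each library of the 9 groups, with the group mean ± SD beside the points except for Mt2. Slc39a14 lies above the Naïve mean of 4.68 FPKM in all 4 Arrest hearts at 0.5 days, while Slc30a1 and Mtf1 overlap the Naïve range in every group.

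Counted over the members, 1 of 5 (Mt1) had no overlap with Naïve in Adr at 0.5 and 1 day and in Arrest at 0.5 and 1 day, and 0 of 5 at 3 and 7 days. Of all 16530 genes tested, 6.33% and 5.25% had no overlap in Adr at 0.5 and 1 day, 2.38% on day 3 and 1.79% on day 7. In Arrest the shares were 8.2%, 10.5%, 3.51% and 1.69% in the same order of time. Since the members were selected on Mt1's level in these hearts, nothing is read from those counts. Between the arms, 0 of 5 members passed the limma threshold at 0.5, 3 and 7 days, with 1, 0 and 0 at an unadjusted p under 0.05, as had 3.86%, 5.37% and 2.52% of all genes. Over all genes the share that passed was 0% at 0.5, 1 and 3 days and 0.00605% on day 7.

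**Figure D4:**
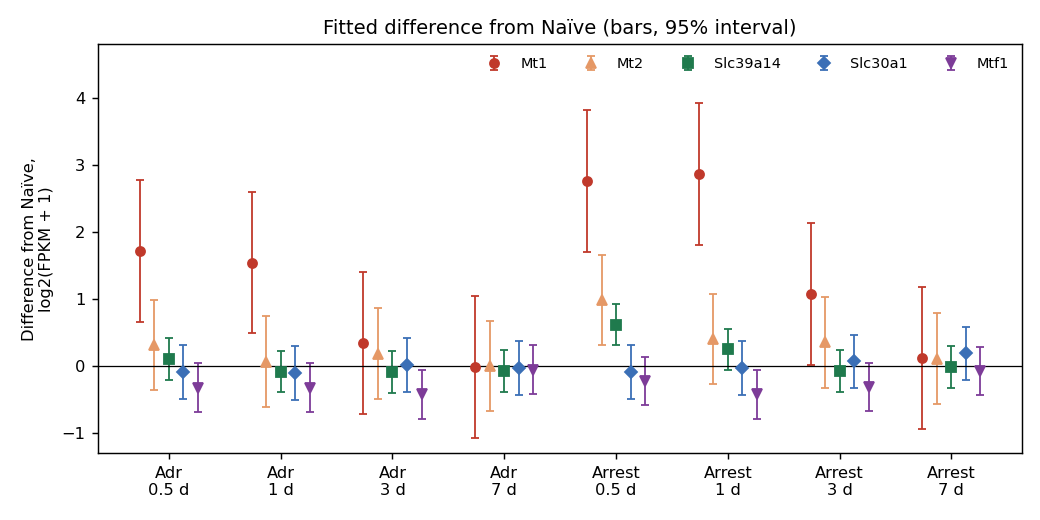
Fitted difference from Naïve on log2(FPKM + 1) for the 5 genes in each Adr and Arrest group, with 95% intervals. Mt1 is at 2.76 and 2.86 in Arrest and at 1.71 and 1.54 in Adr at 0.5 and 1 day, and the other genes lie between -0.42 and 0.99.

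Other genes that handle zinc and copper were compared to place the members. Their list was chosen with earlier results of these data known, so its calls are no independent test. The list held 43 genes, of which 34 were tested. By the limma threshold, 1 was higher in Arrest at 0.5 days, 2 were higher at 1 day, and 0 passed in the other 10 comparisons, where 0 to 6 had an unadjusted p under 0.05, as had 2.52% to 14.7% of all genes. Over all genes, 3.21% and 7.11% passed in Arrest at 0.5 and 1 day, 0.139% on day 3 and 0% on day 7. In Adr 0.188% and 0.69% passed at 0.5 and 1 day and 0% later. The medians of the list were 0.06 and 0.04 on the log2 scale in Arrest at 0.5 and 1 day, beside 0.03 for all genes at both times.

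Pgf, placental growth factor and a reported MTF1 target, was the member of the list called at both times. Naïve hearts read 1.01, 1.15, 2.65, 0.76 and 0.871 FPKM, Arrest hearts 6.61, 11.8, 3.57 and 3.44 at 0.5 days and 5.13, 5.7, 9.36 and 4.41 at 1 day. The groups did not overlap, and the log2 differences were 1.59 (SE 0.32, limma adjusted p = 0.00626) and 1.65 (SE 0.32, adjusted p = 0.00249). The call at 0.5 days was lost without Arrest replicate 2 (adjusted p = 0.0556) and with only the 2 groups fitted. In Adr, Pgf averaged 3.72 ± 1.45 and 3.25 ± 1.12 FPKM (SD, n = 4) at 0.5 and 1 day. Its log2 differences from Naïve, 1.04 and 0.91, did not pass (limma adjusted p = 0.137 and 0.169). At each time 3 of 4 Adr hearts were above every Naïve heart, and Pgf was not called between the arms. Atox1, the chaperone that hands copper to the export pumps, rose at 1 day from 81.3 ± 15.9 (SD, n = 5) to 118 ± 15.2 FPKM (SD, n = 4), by 0.54 (SE 0.14, limma adjusted p = 0.013). That call was lost without Arrest replicate 3 (adjusted p = 0.0769) and under 4 other settings. In Adr at 1 day, Atox1 averaged 107 ± 10.2 FPKM (SD, n = 4), a log2 difference of 0.40 that did not pass (limma adjusted p = 0.145).

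Of the ZIP importers other than Slc39a14, 0 of 10 tested passed in any comparison with Naïve, and of the ZnT exporters other than Slc30a1, 0 of 6, with 0 to 2 of either list at an unadjusted p under 0.05, beside 5.15% to 21.7% of all genes. Slc39a1, an importer of the cell surface, read 42.3 ± 7.58 FPKM (SD, n = 4) in Arrest at 0.5 days and 31 ± 4.16 in Naïve (limma adjusted p = 0.163), and it is named here after its values were seen. Of the other metallothioneins, Mt3, the brain form, had means of 0.569 FPKM in Naïve and at most 1.2 FPKM elsewhere and was not called in any comparison. Mt4 was not among the genes tested.

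**Figure D5:**
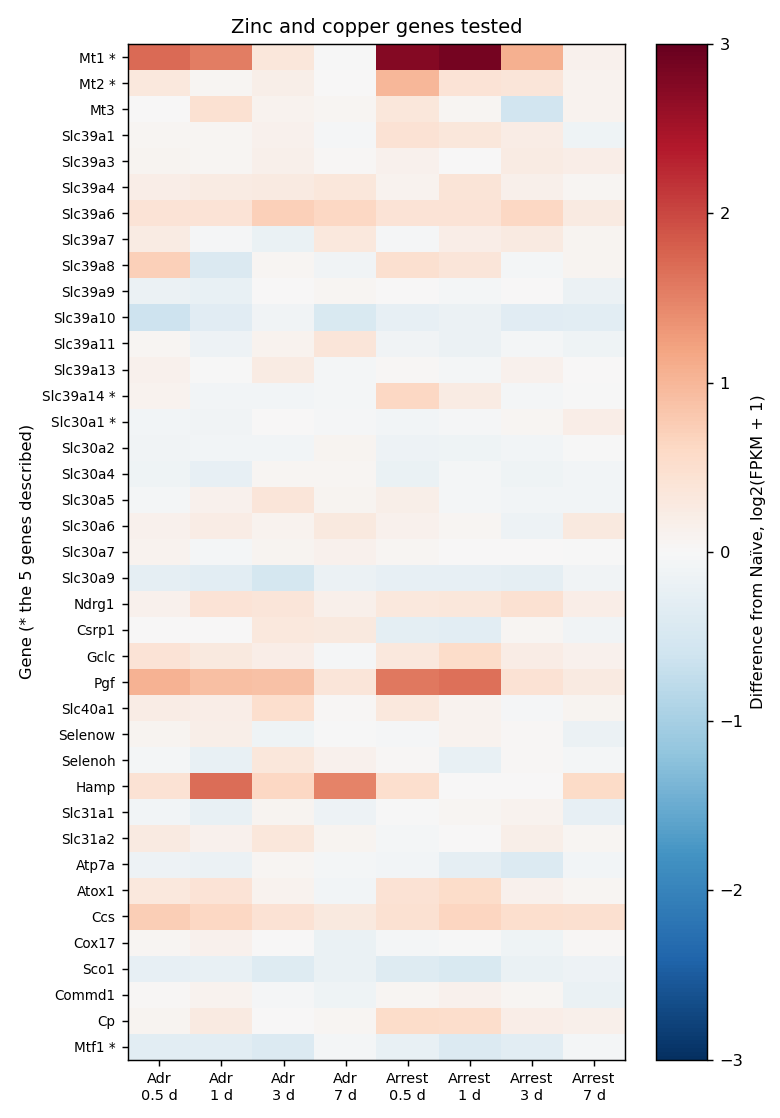
Fitted difference from Naïve on log2(FPKM + 1), as color, for the 5 members (asterisks) and the 34 other zinc and copper genes tested, by group. Mt1 and Pgf are the most strongly colored in Arrest at 0.5 and 1 day, and the ZIP and ZnT transporters are pale.

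Genes of 3 pathways known to act on metallothioneins in other settings were listed as well. These lists were also chosen with earlier results of these data known, so their calls are no independent test. Of 9 genes of the glucocorticoid response, 2 were higher and 1 was lower in Arrest at 0.5 days (limma adjusted p of at most 0.05), and 3 were higher and 1 was lower at 1 day. Fkbp5, a chaperone induced by the glucocorticoid receptor, rose from 1.48 ± 0.624 FPKM (SD, n = 5) to 10.4 ± 5.12 and 12 ± 6.81 FPKM (SD, n = 4) at 0.5 and 1 day, with log2 differences of 2.13 (limma adjusted p = 0.0358) and 2.28 (0.0138). Zbtb16, another induced gene, rose by 1.88 at 1 day (adjusted p = 0.0293), and Cebpd was called higher at both times. In Adr at 0.5 and 1 day, Fkbp5 averaged 10.4 ± 8.75 and 7.3 ± 5.51 FPKM (SD, n = 4), with log2 differences from Naïve of 1.80 and 1.43 that did not pass (limma adjusted p = 0.148 and 0.231) and 3 of 4 hearts above every Naïve heart at each time. Zbtb16 in Adr was at 1.45 and 1.39 (limma adjusted p = 0.212 and 0.215). Neither gene was called between the arms, where Arrest minus Adr was 0.33 and 0.85 for Fkbp5 (adjusted p = 1 and 0.846) and -0.01 and 0.49 for Zbtb16 (1 and 0.909). Nr3c1, the receptor itself, was the lower gene at both times, and it fell from 14 ± 1.24 FPKM (SD, n = 5) to 8.95 ± 1.38 and 9.32 ± 1.02 FPKM (SD, n = 4) in Adr at 0.5 and 1 day, with log2 differences of -0.60 (limma adjusted p = 0.0374) and -0.54 (0.0421). It was the only gene of the 3 lists that passed in Adr.

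Of 7 tested genes of the interleukin-6 and STAT3 response, 5 were higher in Arrest at 0.5 days (Junb, Stat3, Socs3, Osmr and Bcl3) and 4 at 1 day (all but Bcl3). Socs3, the feedback inhibitor of this pathway, rose from 2.57 ± 1.13 to 14.4 ± 7.57 FPKM at 0.5 days, by 2.05 (limma adjusted p = 0.00736). Junb rose from 8.85 ± 2.94 FPKM by 1.64 at 0.5 days (adjusted p = 0.0447) and by 2.10 at 1 day (adjusted p = 0.00569). Of 7 tested NRF2 targets, 1 was higher at 0.5 days (Srxn1) and 4 at 1 day (Nqo1, Srxn1, Txnrd1 and Gclm). In the 3 lists, 0 genes passed at 3 and 7 days or between the arms. Between the arms at 0.5 days, 5 of 7 interleukin-6 and STAT3 genes had an unadjusted limma p under 0.05. So had 1 of 7 NRF2 targets and 0 of 9 glucocorticoid genes, beside 3.86% of all genes. At 1 day the counts in this order were 4, 4 and 1, beside 6.59% of all genes. In the comparisons at 3 and 7 days, 0 to 3 of a list had such a p, beside 2.52% to 13.9% of all genes.

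Of 26 calls of genes named here from these lists and the zinc and copper list, 16 were lost in at least 1 fit without 1 library. Fkbp5 lost its call at 0.5 days in 6 of 9 fits (Naïve replicates 1, 2 and 5 and Arrest replicates 1, 2 and 4; adjusted p up to 0.155) and at 1 day without Arrest replicate 3 (0.0749). Zbtb16 lost it in 5 of 9 (Naïve replicates 4 and 5 and Arrest replicates 1, 2 and 3; up to 0.104), and Socs3 at 0.5 days without Arrest replicate 2 (0.0553). Junb at 0.5 days lost it in 8 of 9 (all but Naïve replicate 2; up to 0.218). Nr3c1 in Adr lost it in 7 of 9 at 0.5 days (all but Naïve replicates 2 and 3; up to 0.166) and in 7 of 9 at 1 day (all but Naïve replicate 3 and Adr replicate 1; up to 0.119). Bcl3 lost it in 7 of 9 (all but Naïve replicates 2 and 4; up to 0.0824), and Cebpd at 0.5 days without Arrest replicate 2 (0.0768). At 1 day, Socs3 lost it without Arrest replicates 1 or 3 (up to 0.0621) and Stat3 without Arrest replicate 3 (0.0507). Of the NRF2 targets, Nqo1 lost it in 5 of 9 (Naïve replicates 1, 2 and 3 and Arrest replicates 1 and 3; up to 0.119), Txnrd1 in 4 of 9 (Naïve replicates 2 and 3 and Arrest replicates 1 and 3; up to 0.109) and Srxn1 at 0.5 days without Arrest replicates 1 or 2 (up to 0.0714). Nr3c1 in Arrest kept its call in all fits at both times (up to 0.0244 and 0.0125), and Junb at 1 day did too (up to 0.0438).

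The genes whose levels followed Mt1 most closely over the 37 libraries were Ly6c1 (Pearson r = 0.96), a surface protein of endothelial cells and monocytes, Lrg1 (0.93), Lcn2 (0.93), Map3k6 (0.93) and Tcf23 (0.92). Spearman's rho ran from 0.83 to 0.89, and r on deviations from the group means from 0.84 to 0.92. These points share the libraries and groups in which Mt1 was chosen, and no p is given. Ly6c1 averaged 84.6 ± 9.46 FPKM (SD, n = 5) in Naïve, 237 ± 37.5 and 239 ± 71.1 (SD, n = 4) in Arrest at 0.5 and 1 day and 94.1 ± 4.52 at 7 days. In Adr it averaged 169 ± 73.3 and 144 ± 33.1 FPKM at 0.5 and 1 day. Lcn2, a secreted iron-trapping protein of the acute phase, averaged 1.74 ± 1.42 FPKM in Naïve, 43.1 ± 30.6 and 38.8 ± 17.9 in Arrest and 11.9 ± 12.7 and 11.2 ± 11.5 in Adr at 0.5 and 1 day. Tcf23 averaged 0.537 ± 0.226 FPKM in Naïve, 2.7 ± 0.956 and 3.79 ± 1.88 in Arrest and 2.84 ± 2.27 and 2.23 ± 1.59 in Adr at 0.5 and 1 day.

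The other members were less closely followed. The gene most like Slc39a14 was Stat3 (r = 0.75, 0.42 within groups), the transcription factor activated by interleukin-6, which averaged 12.4 ± 1.95 FPKM in Naïve and 24 ± 2.8 and 19.7 ± 2.38 in Arrest at 0.5 and 1 day. Stfa2l1 (0.74) and Uap1 (0.72) came next. Slc30a1 was most like Zfp949 (0.73), Dpy19l3 (0.67) and Ino80d (0.66), and Mtf1 most like Prex2 (0.67), Aff4 (0.64) and Kif1b (0.63). Mt2 was most like ENSMUSG00000120643 (0.8), Slc6a12 (0.78) and 1200007C13Rik (0.75), a likeness that rests on the 11 libraries with Mt2 above 0. Among the members, Mt1 correlated with Mt2 at r = 0.64 and with Slc39a14 at 0.59 (0.3 within groups), and with Slc30a1 at -0.1 (0.09 within groups) and Mtf1 at -0.18 (0.23 within groups).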

How the data were processed

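RNA of left ventricular tissue was sequenced in 37 libraries. Their groups follow GEO's treatment labels, in which Adr is named sham. Reads were aligned with HISAT2 v2.0.5 by or for the authors. The deposited table gives FPKM for 56748 genes, which the authors' processing obtained from fragments, gene length and a library size that is not named. This size was not the number of fragments counted on genes. For Mt1 at 3 days, 2632 fragments of 17.2 M read 87.5 FPKM in Adr replicate 3, and 1771 of 13.9 M read 107 FPKM in replicate 1. The genome build of the table, its annotation, the counting tool and the strand counted are not given in the sources used here. FPKM multiplied by gene length gave whole fragments in 100% of the values (within 0.01 fragment), or 13.2 to 30.2 M fragments per library (M, 1e6 fragments). These totals limit the precision of low values, and floors quoted here cover counting error only. All per-sample columns were used.

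FPKM values were rescaled by median ratios (factor 1.013 in every library) and taken to log2(FPKM + 1). With the same factor throughout, the deposited values were already level by this measure, and the step changed no ratio between libraries. The 16530 genes reaching 0.5 FPKM in 4 or more libraries entered a limma fit (version 3.58.1, R 4.3.3). It had 1 mean per group over all libraries and a trend of variance with mean. Each gene had 1 spread shared by all groups, also where the spread of single groups differed. P-values were adjusted per comparison after Benjamini and Hochberg (threshold 0.05). The script was tested on simulated data. The 5 members and all gene lists were chosen with earlier results of these data known. No p is therefore given for members against Naïve or at 1 day between the arms, where the pattern that led to their choice lies. Other genes are named where their adjusted p is at most 0.05 and their mean at least 1 FPKM in 1 of the groups (at most 8 zinc and copper genes and 3 genes of the regulatory lists per comparison, by size of change), or for having the highest Pearson r with a member. Values are given for those genes, while other called genes of the regulatory lists are named because their counts were 5 or fewer, chosen after their values were seen, as was Slc39a1. The labels do not say how the mice of a group were housed or processed together, so p-values measure the spread between these libraries. Promoters were the 250 bases before the RefSeq start on GRCm38.p6. Alternatives were the scaling, pseudocount, filter, gene-length trend, sex, replicate number, sample weights, the groups in the fit and leaving out single libraries. Plots were made in Python 3.11.15 with matplotlib 3.10.9.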

Additional observations from a re-analysis of the deposited data

Results flagged for a closer look

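In each of 54 combinations of group and measure (the 5 genes and the mitochondrial share), the highest and lowest library were compared with the rest of their group by Dixon's gap ratio, on log2(FPKM + 1) and on FPKM for the genes, and 7 stood apart on at least 1 scale. Chance flags about 1 in 20 groups in 1 such test on normally distributed values, and more when either scale may flag. For Mt2, 1 library above 0 among libraries at 0 gives the highest possible ratio whatever its value. Those 4 flags therefore follow from the zeros, and groups with every library at 0 could not be flagged. Mt1 in Adr replicate 4 at 3 days was 423 FPKM, against 87.5 to 109 in the other libraries of its group. In Arrest replicate 1 at 3 days it was 869 FPKM, against 132 to 184, which stood apart on FPKM but not on the log2 scale. The Mt2 values that stood apart were 0.198 FPKM in Adr replicate 4 at 1 day, 0.678 in Adr replicate 4 at 3 days, 1.72 in Arrest replicate 1 at 3 days and 0.376 in Arrest replicate 1 at 7 days, and in each case the other libraries of the group were at 0. The share of counted fragments on genes of the mitochondrial genome was 9.36% in Adr replicate 3 at 3 days, against 26% to 28.1% in the rest of that group.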

How the results depend on the processing

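Of the recomputed values, 1436 kept their direction and their side of the threshold or stayed within the spread between replicates, and 27 moved by more. Another 25, all tested differences between the arms, changed sign. In differences from Naïve or at 1 day between the arms, a change of sign within the spread was counted as kept. For these, values alone were compared, and some alternatives could not change them. With 1 mean per group, a fitted difference is the same under another filter, with fewer groups fitted or without a library of neither group. FPKM as deposited differed from the main values by the factor 1.013 alone. Values kept under those settings are therefore no support. Mt1 stayed above Naïve under every alternative at 0.5 and 1 day and in Arrest at 3 and 7 days, while in Adr at 3 days it ran from -0.17 to 0.58 on the log2 scale. No member reached the threshold between the arms under any alternative at 0.5, 3 or 7 days. With a pseudocount of 0.1, Mt2 against Naïve was 1.51, 0.39, 0.74 and 0 in Adr and 2.45, 1.55, 1.04 and 0.56 in Arrest from the first to the last time, and 1.15 between the arms at 1 day. Mt2 in Adr at 1 day was -0.08 with the length trend removed. In Adr at 7 days it was -0.03 with quantile normalization, -0.04 with the length trend removed, -0.03 with sex as a covariate and 0 with the replicate block. Every library of that group and of Naïve was at 0 for Mt2. The spread there was therefore 0, and any shift counted as moved, even one that rounds to 0. Mt2 has no value under a minimum mean of 1 FPKM, because it fails that filter.

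The number of other zinc and copper genes called was 1 in Adr at 1 day with scaling by counted fragments. In Arrest it was 0 at 0.5 days with only the 2 groups fitted, and 1 at 1 day with quantile normalization, scaling by counted fragments, the length trend removed or only the 2 groups fitted. With single libraries left out, the counts ran from 0 to 1 in Adr at 1 day, in Adr at 3 days and in Arrest at 3 days, from 0 to 2 in Arrest at 0.5 days and from 1 to 3 in Arrest at 1 day. Adr replicate 3 at 3 days was among the libraries left out, and without it the count was 1 in Adr at 1 day, 2 in Arrest at 0.5 days and 1 in Arrest at 3 days. It was 1 in Adr at 3 days without Adr replicate 1 of that time, and 2 in Arrest at 0.5 days without Naïve replicate 3.

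Differences between the arms that were near 0 changed sign. Slc30a1 at 0.5 days was 0 with quantile normalization, scaling by counted fragments or the length trend removed and 0.03 with sample weights. With scaling by counted fragments, Slc39a14 at 3 days was -0.08 and Slc30a1 at 3 days -0.05. Mtf1 at 7 days was 0.01 with sex as a covariate. With single libraries left out, Mt1 at 7 days ran from -0.02 to 0.26, Mt2 from -0.18 to 0.36 at 3 days and from 0 to 0.15 at 7 days, Slc39a14 from -0.03 to 0.08 at 3 days and from -0.04 to 0.12 at 7 days, Slc30a1 from -0.1 to 0.08 at 0.5 days and from -0.14 to 0.18 at 3 days, and Mtf1 from -0.01 to 0.19 at 0.5 days and from -0.17 to 0.06 at 7 days. The cause of these shifts was not tested.

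Replicate numbers are shared between groups. They do not mark paired animals in the labels, and of 48 pairs of same-numbered libraries 1 had deviations from the group means that correlated above 0.1 (range -0.28 to 0.24). With the replicate block, Mt1 in Arrest against Naïve was 2.74 at 0.5 days and 2.84 at 1 day, and the number of other zinc and copper genes called was 1 and 2, as without it. The block lowered the calls over all genes in Arrest at 0.5 days from 531 to 280. It ended 6 of the 26 calls of named genes, those of Fkbp5, Bcl3 and Junb in Arrest at 0.5 days, Zbtb16 in Arrest at 1 day and Nr3c1 in Adr at 0.5 and 1 day. Under the other 10 settings, Junb at 0.5 days was lost in 5, Nr3c1 in Adr in 3 at 0.5 days and 4 at 1 day, Atox1 in 4, Nqo1 in 3, Bcl3 in 2, and Fkbp5 at 0.5 days, Pgf at 0.5 days, Zbtb16, Gclm, Txnrd1 and Srxn1 at 0.5 days in 1 each.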
